A study of Homo sapiens with 4 samples.

Results

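The mRNAs of 10 genes of the Notch pathway were followed after knockdown of AEG-1 (MTDH) in SAS cells, a line of squamous carcinoma of the tongue: the receptors NOTCH1, NOTCH2 and NOTCH3, the ligands JAG1, JAG2 and DLL1, the coactivator MAML1, the target genes HES1 and HEY1, and the inhibitor NUMB. These genes were taken by symbol from the 19062 genes that the array's probes could be matched to, and 12 probes measured them, NOTCH1 and NOTCH2 having 2 probes each. SB cells were SAS cells that stably carried the shRNA LYRIC shRNA-B in the lentiviral vector pLKO.1, and SCt cells were the control line, for which the labels name the pLKO.1 vector alone and the study's methods name a scrambled shRNA. Stable clones of both lines came from 14 days of puromycin at 2 μg/ml and were grown with 10% FBS, and each labelling took 15 μg of RNA. Each of 4 dual-channel Agilent arrays compared RNA from SB cells, labelled red, with RNA from SCt cells, labelled green, and the shRNA was represented by 1 construct.

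The labels call the 4 arrays biological replicates, and the study's methods give independent biological and technical replicates for its in vitro comparisons in general, in a number that differs from that of the arrays. Neither source says whether these arrays came from separate cultures, so the SDs and p-values may cover technical spread only. No array had the dyes exchanged, so that a probe's preference for one dye and the knockdown cannot be told apart. The arrays shared 1 slide and 1 scan. Each held 43118 spots other than controls, of which 85.4% to 90.3% were well above background in the SB channel and 84.7% to 90.0% in the SCt channel, and no spot was saturated. The number of arrays limits the precision, and the log2 ratios of different arrays correlated weakly over all probes (Pearson's r across probes, 0.046 to 0.461). AEG-1 itself was downregulated in SB cells on every array, with log2 ratios of −3.18, −3.01, −3.12 and −3.41, a mean fall of 9.07 fold (limma, adjusted p = 5.19e-10). All 10 squamous epithelial markers examined were well above background for both lines on every array. So were 3 of 6 fibroblast, 4 of 4 endothelial and 5 of 5 leukocyte markers, a threshold that most spots passed. A marker was counted if at least 1 of its probes passed, and DCN, PECAM1 and PTPRC each also had a probe that did not. Of the markers that could be tested, 0 had an adjusted p under 0.05 for a difference between the lines (limma), where 3.7% of all tested probes did.

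Notch receptors are membrane proteins that are cut when a Jagged or Delta ligand on a neighbouring cell binds them. The released intracellular domain enters the nucleus, joins the DNA-binding protein RBPJ and a Mastermind coactivator, and switches on repressor genes of the HES and HEY families. In stratified squamous epithelium the pathway promotes differentiation, and NOTCH1 is a recurrent target of inactivating mutations in squamous carcinomas of the head and neck. The arrays measured mRNA only, so neither cleavage of the receptors nor their protein was seen.

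RBPJ binds the core TGGGAA, and this core was looked for on both strands of the promoter windows of RefSeq (GRCh38.p14), which run from 250 bases before a gene's start to 50 bases after it. The 250 bases before the start are shown for HES1, because it is the target gene among the 10 with a window, for HES4 and HES5 as 2 other genes of the HES family that held the core, and for NEURL1, the pathway gene with the largest fall in SB cells. Capitals mark TGGGAA or its reverse complement, and each sequence is written 5′ to 3′ along the gene's strand.
HES1, chr3:194135898-194136147, plus strand: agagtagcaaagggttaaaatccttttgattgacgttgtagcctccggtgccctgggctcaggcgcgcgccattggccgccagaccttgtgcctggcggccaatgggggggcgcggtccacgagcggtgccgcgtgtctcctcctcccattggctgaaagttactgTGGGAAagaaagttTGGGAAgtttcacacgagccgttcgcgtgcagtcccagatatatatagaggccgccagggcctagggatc
HES4, chr1:1000098-1000347, minus strand: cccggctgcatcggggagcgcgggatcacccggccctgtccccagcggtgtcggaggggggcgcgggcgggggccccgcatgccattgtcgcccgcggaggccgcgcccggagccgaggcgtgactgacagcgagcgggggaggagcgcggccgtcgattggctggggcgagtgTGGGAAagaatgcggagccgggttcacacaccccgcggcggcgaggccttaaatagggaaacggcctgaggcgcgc
HES5, chr1:2530264-2530513, minus strand: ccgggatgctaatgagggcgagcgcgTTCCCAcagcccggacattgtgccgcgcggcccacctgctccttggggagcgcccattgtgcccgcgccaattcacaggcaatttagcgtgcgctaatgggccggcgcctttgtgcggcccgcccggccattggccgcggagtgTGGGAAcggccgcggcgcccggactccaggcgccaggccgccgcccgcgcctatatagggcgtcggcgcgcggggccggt
NEURL1, chr10:103493455-103493704, plus strand: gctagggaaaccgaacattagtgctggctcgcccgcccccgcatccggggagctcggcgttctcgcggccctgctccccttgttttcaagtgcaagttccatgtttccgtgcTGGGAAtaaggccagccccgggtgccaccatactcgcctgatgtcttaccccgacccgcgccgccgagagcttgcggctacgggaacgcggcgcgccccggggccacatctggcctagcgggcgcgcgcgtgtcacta

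HES1 carried the core at 2 places on the gene's strand, beginning 84 and 70 bases before the start. HES4 carried it once, at 76 bases, and HES5 carried it at 80 bases and, in reverse complement, at 224 bases. NEURL1 held a single core, 138 bases before the start. Of all 35116 promoter windows, 24.0% held at least 1 core and 3.8% held at least 2. Among the 9 windows found for the HES, HEY and NRARP target genes, 5 held a core, and 4 of them held at least 2. Of the 8 windows found for the 10 genes, 1 held it, that of HES1, and no window was found for HEY1 or DLL1. A match of these letters is a description of the window and not a measurement of binding.

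With loess normalization and all 4 arrays, no receptor, ligand, target or regulator of the 10 passed the test for a difference between SB and SCt cells. Of the 11 probes that were above background and could be tested, 0 had an adjusted p under 0.05 (limma, adjusted over 28505 probes), whereas 3.7% of all tested probes did, 2.38% being lower and 1.32% higher in SB cells. At an unadjusted p under 0.05 there were 3 of 11 (27.3%), for NOTCH2, DLL1 and NUMB, against 18.7% of all tested probes. With median centring of the arrays in place of loess 2 of the 11 passed, where 8937 of all 28505 probes did. They were a NOTCH2 probe (0.33; limma, adjusted p = 0.0141) and a NOTCH1 probe (0.22; limma, adjusted p = 0.0217). Without array 4 JAG2 alone of the 11 passed, where 1991 of all 28499 probes did. The methods' t-test gave 2 of the 11 at an unadjusted p under 0.05, against 3936 of all 28505 probes. After adjustment it gave 0 of the 11 and 0 of all 28505 probes, AEG-1 included, so that its 0 says nothing about these genes. The mean ratio was above 0 for 3 probes and below 0 for 8, with a median log2 ratio of −0.044 against 0.012 over all tested probes. Median centring instead put 7 above and 4 below 0, with a median of 0.055 against 0.065 over all tested probes. On all 4 arrays 3 of the 11 probes (27.3%) lay on one side of 0, as did 26.5% of all tested probes. The 95% confidence intervals of all 11 lay between −0.32 and 0.40 on the log2 scale, that is, between a fall of 1.25 fold and a rise of 1.32 fold. In bulk RNA, fewer cells that express a gene and less of its RNA per cell cannot be told apart.

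**Figure D1:**
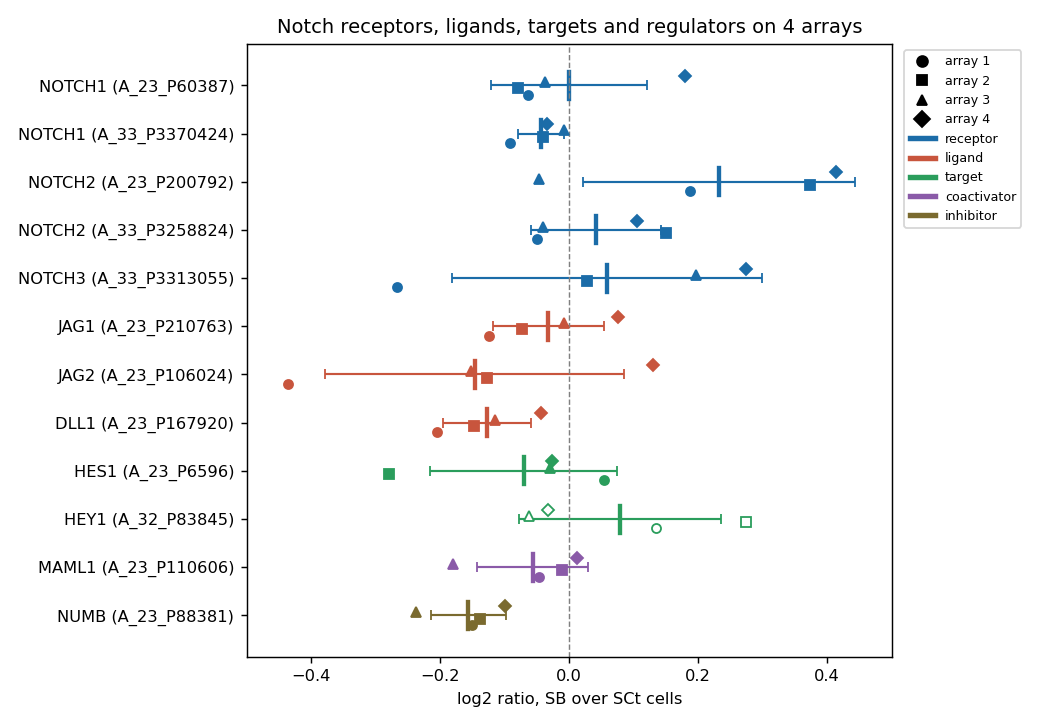
Log2 ratio of SB over SCt cells (x axis) for each of the 12 probes of the 10 genes (y axis, gene and probe name). Symbols are the 4 arrays, the thick tick is their mean and the horizontal bar the SD (n = 4), colours give the role, and open symbols mark HEY1, which was not tested. Only the second NOTCH1 probe, DLL1 and NUMB have all 4 symbols on one side of 0.

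Among the receptors, NOTCH1, which is the main Notch receptor of squamous epithelium, was read by 2 probes. The probe A_23_P60387, the mean of 10 spots per array, gave log2 ratios of −0.064, −0.079, −0.038 and 0.18 on arrays 1 to 4, with a mean of −0.00074 ± 0.12 (SD, n = 4; limma, adjusted p = 0.996). The normalized intensity of this probe was 302, 374, 408 and 281 in SB cells and 315, 396, 419 and 248 in SCt cells. Arrays 1 to 3 lay slightly below equality and array 4 lay above it, and the intensities of the lines overlapped.

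The second NOTCH1 probe, A_33_P3370424, gave log2 ratios of −0.092, −0.041, −0.0074 and −0.035, with a mean of −0.044 ± 0.035 (SD, n = 4; limma, adjusted p = 0.723). Its ratios were below 0 on every array and its SD was the lowest of the 11 probes, but the mean was only about as large as that SD. The difference between the 2 probes was 0.043 ± 0.12, with the first probe higher on 2 of 4 arrays (exact sign-flip test, two-sided, p = 0.875, where 4 arrays cannot give a p below 0.125). With median centring the second probe was at 0.22 and passed the threshold (limma, adjusted p = 0.0217), so that its direction turned with the normalization.

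NOTCH2, a receptor with broad expression in epithelia, had the highest mean ratio of the 11 probes. Its probe A_23_P200792 gave log2 ratios of 0.19, 0.37, −0.047 and 0.41, with a mean of 0.23 ± 0.21 (SD, n = 4), or 1.17 fold higher in SB cells (limma, adjusted p = 0.120). On the intensity scale this probe read 1941, 2267, 2128 and 2033 in SB cells and 1705, 1749, 2198 and 1525 in SCt cells. Arrays 1, 2 and 4 were higher in SB cells and array 3 was not, and the 2 sets of intensities overlapped through that array.

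The other NOTCH2 probe, A_33_P3258824, gave log2 ratios of −0.049, 0.15, −0.040 and 0.10, with a mean of 0.041 ± 0.10 (SD, n = 4; limma, adjusted p = 0.765). It was higher in SB cells on arrays 2 and 4 and lower on arrays 1 and 3. The first probe exceeded the second by 0.19 ± 0.14, on 3 of 4 arrays (exact sign-flip test, two-sided, p = 0.25). Both probes had a mean above 0, also with median centring, where the first was at 0.33 (limma, adjusted p = 0.0141) and the second at 0.16.

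NOTCH3, a receptor found in squamous epithelium and in vascular smooth muscle, had the widest spread of the 11 probes. Its log2 ratios were −0.27, 0.028, 0.20 and 0.27, with a mean of 0.058 ± 0.24 (SD, n = 4; limma, adjusted p = 0.759). The intensity of this probe was 1194, 2305, 1874 and 559 in SB cells and 1437, 2260, 1635 and 462 in SCt cells. Array 4 was dimmer than the others for this probe in both channels, and the direction differed between array 1 and arrays 3 and 4.

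**Figure D2:**
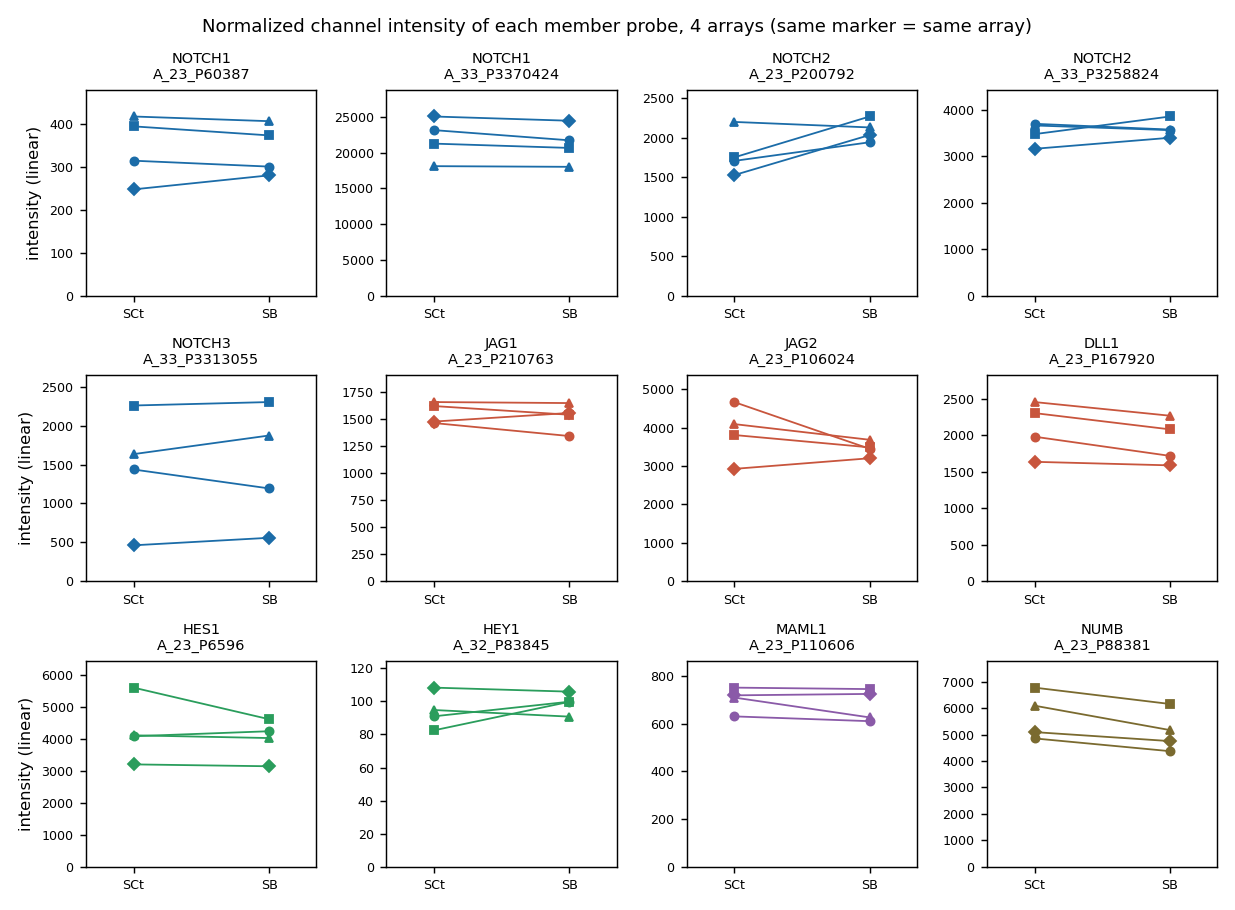
Normalized channel intensity (y axis, linear, starting at 0) of each of the 12 probes in SCt and SB cells, with a line joining the 2 channels of 1 array and 1 symbol per array. The lines of DLL1, NUMB and the second NOTCH1 probe fall from SCt to SB cells on every array, and the NOTCH3 probe read 559 and 462 on array 4. Heights cannot be compared between panels, since each probe has its own brightness.

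The 3 ligands had mean ratios below 0, although JAG1 was above 0 (0.055) with median centring. JAG1, a Jagged ligand, gave log2 ratios of −0.12, −0.074, −0.0082 and 0.076, with a mean of −0.032 ± 0.086 (SD, n = 4; limma, adjusted p = 0.817). Its intensities, 1340, 1536, 1644 and 1553 in SB cells and 1460, 1617, 1654 and 1474 in SCt cells, covered the same range.

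JAG2, the other Jagged ligand, was read by 10 spots per array. Its log2 ratios were −0.44, −0.13, −0.15 and 0.13, with a mean of −0.15 ± 0.23 (SD, n = 4; limma, adjusted p = 0.355). The intensity was 3447, 3486, 3683 and 3203 in SB cells and 4666, 3808, 4092 and 2926 in SCt cells. The first array was far lower in SB cells, arrays 2 and 3 were moderately lower, and array 4 was higher. The 10 spots of 1 array differed by an SD of 0.032 to 0.042 on the log2 scale, so the spread of JAG2 lay between arrays and not between spots. Without array 4 the ratio was −0.24 and passed the threshold (limma, adjusted p = 0.0403), and without array 1 it was −0.050 (limma, adjusted p = 0.773). With median centring it was −0.025 (limma, adjusted p = 0.815).

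DLL1, a Delta-like ligand, gave log2 ratios of −0.21, −0.15, −0.11 and −0.044, with a mean of −0.13 ± 0.068 (SD, n = 4; limma, adjusted p = 0.245). Its intensity was 1717, 2080.5, 2268 and 1588 in SB cells and 1980, 2304, 2455 and 1636 in SCt cells. The ratio was below 0 on all 4 arrays, while the intensities of the lines overlapped between arrays. The unadjusted p was 0.0422 in the limma fit, and the interval of the difference ran from −0.25 to −0.0053.

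MAML1, the Mastermind coactivator that binds the Notch and RBPJ complex on DNA, was read by 10 spots per array. Its log2 ratios were −0.047, −0.012, −0.18 and 0.012, with a mean of −0.057 ± 0.086 (SD, n = 4; limma, adjusted p = 0.651). Array 3 was lower in SB cells and the other arrays were close to equality.

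HES1, a repressor of differentiation genes whose promoter window with 2 RBPJ cores is printed above, is the usual mRNA readout of Notch signalling. Its log2 ratios were 0.054, −0.28, −0.030 and −0.027, with a mean of −0.071 ± 0.14 (SD, n = 4; limma, adjusted p = 0.610). The intensity was 4230, 4606, 4018 and 3137 in SB cells and 4074, 5591, 4103 and 3196 in SCt cells. Only array 2 departed from equality by more than a few percent, and without that array the ratio was −0.00091. The interval of HES1 ran from −0.21 to 0.071.

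HEY1, a second repressor induced by Notch, was dim: its probe was well above background on 3 of 4 arrays in SB cells and 2 of 4 in SCt cells, and so did not enter the test. It read 99.8, 99.7, 90.7 and 106 in SB cells and 90.9, 82.5, 94.7 and 108 in SCt cells. The log2 ratios of 0.13, 0.27, −0.062 and −0.033 had a mean of 0.078 ± 0.16 (SD, n = 4), and without the filter on dim probes the adjusted p was 0.579 (limma).

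NUMB, an endocytic adaptor that lowers Notch activity, gave log2 ratios of −0.15, −0.14, −0.24 and −0.10, with a mean of −0.16 ± 0.058 (SD, n = 4), or 1.11 fold lower in SB cells (limma, adjusted p = 0.150, unadjusted p = 0.0155). Its intensity was 4371, 6155, 5169 and 4752 in SB cells and 4854, 6774, 6091 and 5093 in SCt cells. The ratio was below 0 on all 4 arrays, whereas the ranges of the lines overlapped. With median centring the ratio of NUMB was −0.018, and that of DLL1 −0.031.

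The 11 probes did not move evenly from array to array. SB cells were higher for 2, 3, 1 and 7 of the 11 probes on arrays 1 to 4, with medians of −0.092, −0.074, −0.040 and 0.076 on the log2 scale. Over all tested probes the medians of the same arrays lay between 0.00077 and 0.016. Array 4 was the one on which most of these probes were higher in SB cells. Taking each gene's brightest probe, the mean ratio of the ligands was below that of the receptors on each array: −0.26 against −0.14, −0.12 against 0.045, −0.091 against 0.050, and 0.054 against 0.11. These are descriptions of 3 genes against 3 genes, without a test.

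**Figure D3:**
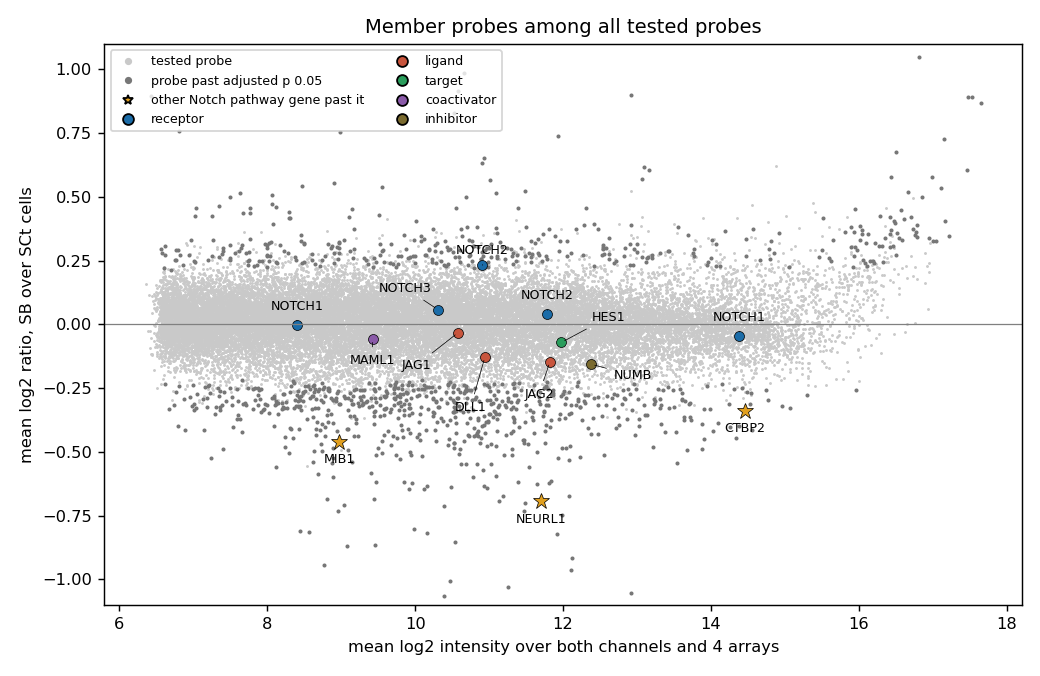
Mean log2 ratio of SB over SCt cells (y axis) against the mean log2 intensity over both channels and 4 arrays (x axis) for all 28505 tested probes, of which 13 lie beyond the plotted range of 1.1 on either side. Dark grey points passed an adjusted p of 0.05, coloured circles are the 11 probes of the receptors, ligands, target, coactivator and inhibitor, and stars are NEURL1, MIB1 and CTBP2. The circles lie among the light grey points, and the stars lie below them.

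The other genes of the pathway were taken from a list of 63, of which 62 were matched to probes and 59 could be tested, 1 probe per gene. By mean ratio 25 were higher and 34 lower in SB cells, with a median log2 ratio of −0.010 against 0.013 over all genes. Median centring turned this to 41 higher and 18 lower, while the median over all tested probes rose from 0.012 to 0.065. After adjustment 0 rose and 3 fell (limma), which is 5.08% against 3.51% of all genes (2.26% lower, 1.26% higher), and at an unadjusted p under 0.05 there were 9 (15.3%) against 18.1%. Both shares were near those of all genes. In these comparisons all genes are 23484 names with 1 probe each, and probes without a RefSeq symbol enter under the file's identifier. The 3 that fell were NEURL1, MIB1 and CTBP2.

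NEURL1 and MIB1 are E3 ubiquitin ligases that act on Notch ligands in the cell that sends the signal. NEURL1 gave log2 ratios of −0.94, −0.44, −0.85 and −0.56, with a mean of −0.69 ± 0.24 (SD, n = 4), and was downregulated by 1.62 fold (limma, adjusted p = 0.000744). Its intensity was 2577, 3479, 2448 and 2158 in SB cells and 4938, 4708, 4398 and 3175 in SCt cells. All 4 arrays were lower in SB cells, and the 2 ranges overlapped only in that array 2 of SB cells exceeded array 4 of SCt cells. Of the 28505 tested probes, 30 had a lower ratio.

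MIB1 gave log2 ratios of −0.29, −0.34, −0.60 and −0.61, with a mean of −0.46 ± 0.17 (SD, n = 4), and was downregulated by 1.38 fold (limma, adjusted p = 0.00375). Its intensity was 397, 453, 465 and 401 in SB cells and 486, 575, 705 and 611 in SCt cells. The ranges of the 2 lines did not overlap. Without array 3 its adjusted p was 0.0704 (limma), at a ratio of −0.41.

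CTBP2 is a corepressor that the repressor complex on RBPJ recruits. Its brightest probe gave log2 ratios of −0.28, −0.17, −0.54 and −0.37, with a mean of −0.34 ± 0.16 (SD, n = 4), or 1.26 fold lower in SB cells (limma, adjusted p = 0.0168). Its other probe was also lower on all 4 arrays, by a mean of −0.17 ± 0.10 (SD, n = 4), but was not past the threshold (limma, adjusted p = 0.149). Each probe is annotated to a different RefSeq transcript of CTBP2, and whether the transcripts differ in their change was not tested. Without array 3 the brightest probe gave −0.27 (limma, adjusted p = 0.129), and with median centring of the arrays in place of loess it gave −0.069 (limma, adjusted p = 0.456).

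By role, the 14 tested genes of endocytosis and turnover held 11 with a mean ratio below 0, NEURL1 and MIB1 among them. The 11 genes of the repressor complex held 8, with CTBP2 among them. Of the 23484 names taken as all genes, 10480 had a mean ratio below 0. In the repressor complex the sign depended on the probe for NCOR1 (brightest −0.035, others 0.069 and 0.062), TLE1 (brightest −0.10, other 0.070) and SPEN (brightest 0.013, other −0.11). At an unadjusted p under 0.05 there were 5 of 14 (35.7%) and 3 of 11 (27.3%), against 18.1% of all genes. AAK1, 1 of the 5, was counted through its brightest probe (−0.17). Its other tested probes gave −0.046 and −0.018 (limma, unadjusted p = 0.497 and 0.765). With median centring the counts with a mean ratio below 0 were 8 of 14 and 2 of 11, so the direction of the repressor group turned with the normalization. The median log2 ratio over all tested probes rose as well, from 0.012 to 0.065. Of the 9 genes of receptor cleavage 7 had a mean ratio above 0 (8 with median centring), and 0 passed the threshold (limma), with 1 at an unadjusted p under 0.05, ADAM17, a sheddase able to cut Notch, at 0.24 ± 0.15 (SD, n = 4; adjusted p = 0.0769). ADAM17 falls outside the rule by which genes were named and is given because it was that single gene. NCOR1, TLE1, SPEN and AAK1 also fall outside it and are given for the spread of their probes. The 6 subunits of gamma-secretase, the protease that releases the intracellular domain, ranged from −0.072 to 0.13, and 0 passed (limma), with 0 at an unadjusted p under 0.05. The lowest value was that of the brightest probe of APH1A. The other tested probe of APH1A gave 0.12, and each of these probes kept its sign on all 4 arrays. RBPJ, the DNA-binding protein of the pathway, had a ratio of 0.090 ± 0.084 (SD, n = 4; limma, adjusted p = 0.437). The 5 other HES and HEY genes that could be tested ranged from −0.13 to 0.12, HES5 being at −0.13 ± 0.19 and HES4 at 0.11 ± 0.14 (SD, n = 4), and 0 passed (limma), with 0 at an unadjusted p under 0.05. With median centring, under which the count over all probes was 8937, the calls included ADAM17, NCSTN and PSENEN of gamma-secretase, whose subunits then reached 0.30, and HES4 and HES6. HEY2 and HEYL were not above background on all arrays, and DTX2 had a value on 1 array only.

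**Figure D4:**
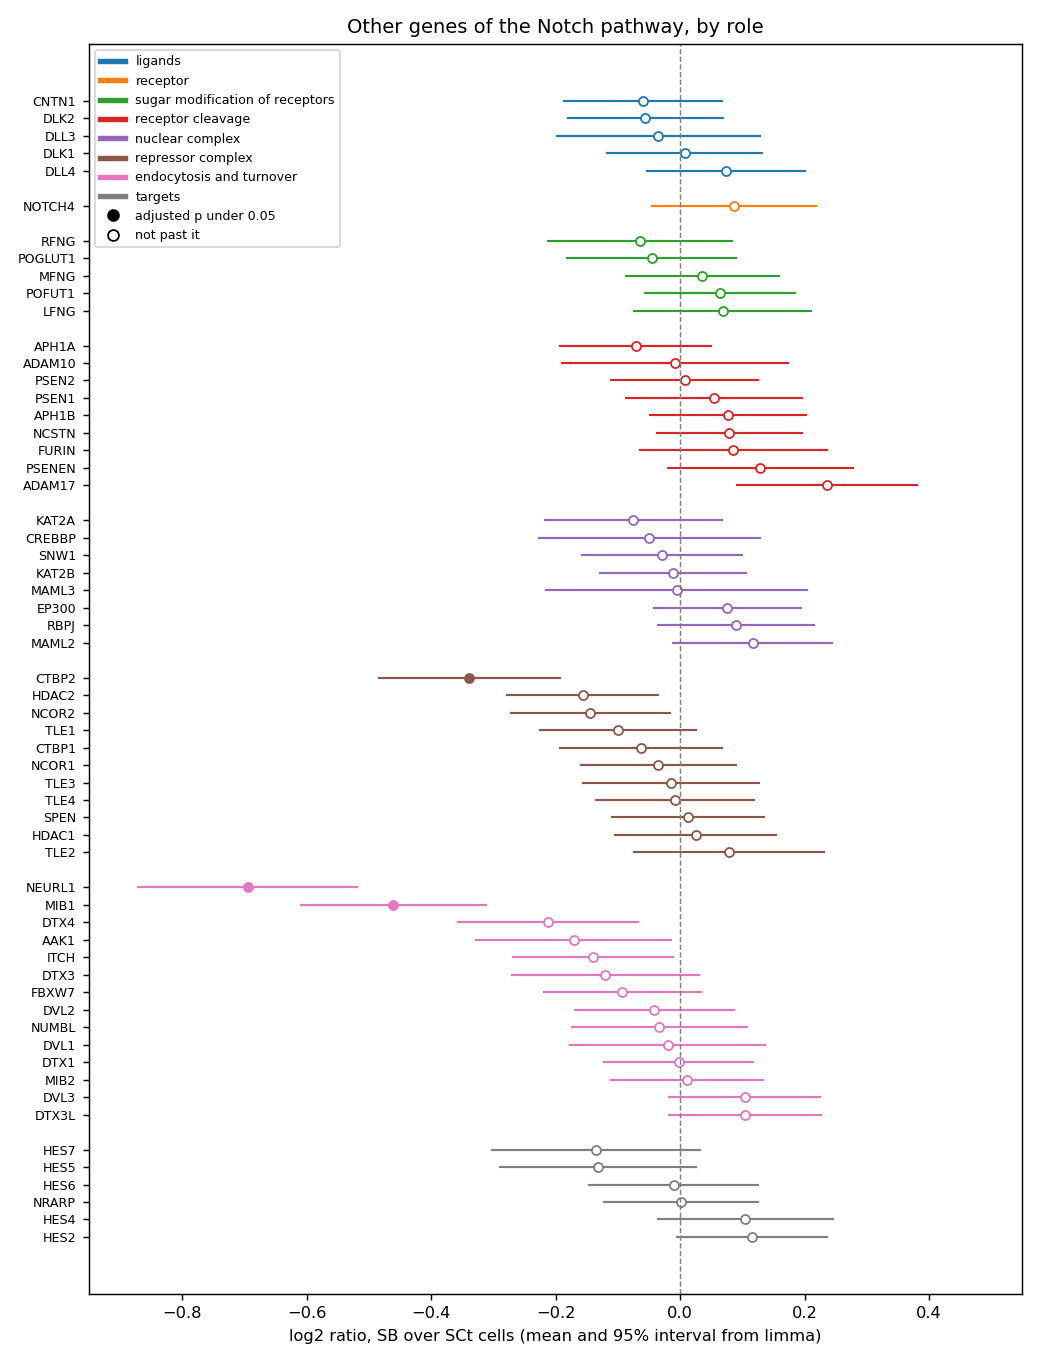
Mean log2 ratio of SB over SCt cells with its 95% interval from limma (x axis) for the 59 tested genes of the wider Notch list (y axis), coloured by role and ordered by ratio within a role. Filled points passed an adjusted p of 0.05: CTBP2 (−0.34), NEURL1 (−0.69) and MIB1 (−0.46).

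**Figure D5:**
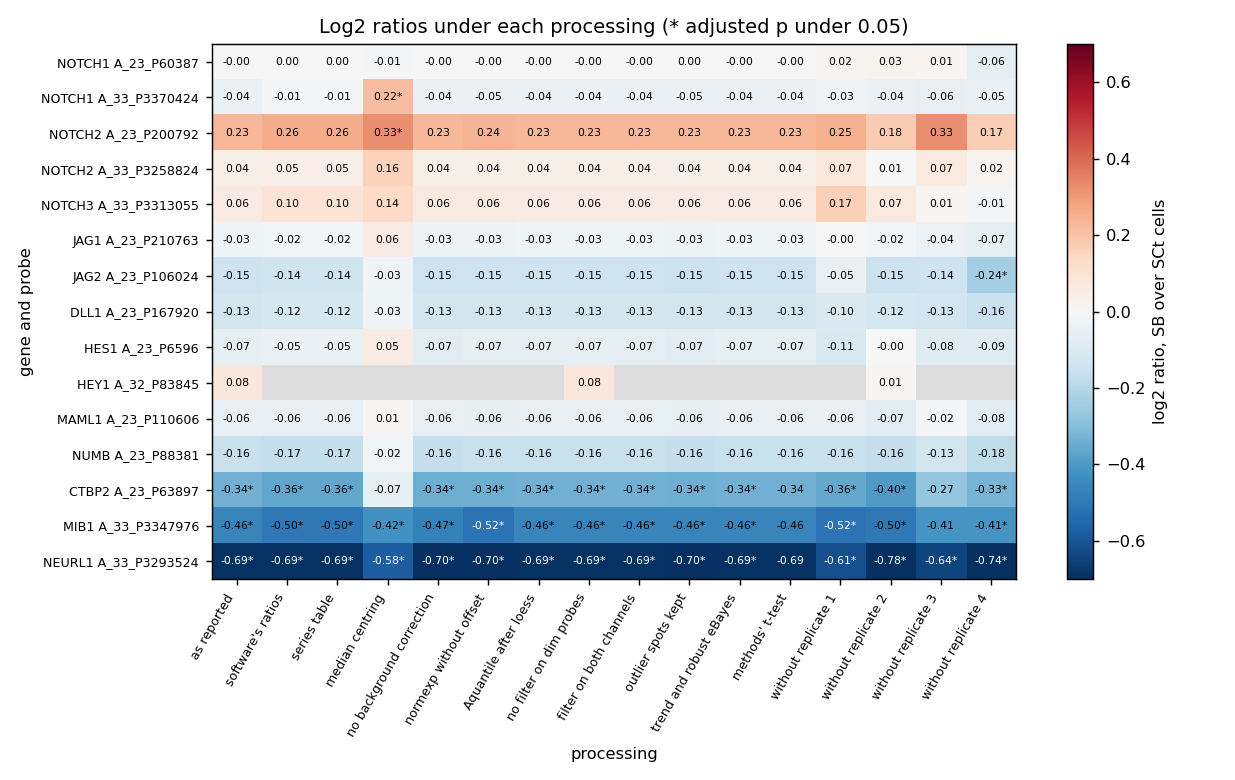
Log2 ratio of SB over SCt cells (colour and printed value) for the 12 probes and the 3 genes that fell (y axis) under the processing as reported and each alternative (x axis), with an asterisk where the adjusted p was under 0.05 and grey where a probe was not tested or given. Median centring is the column in which the second NOTCH1 probe (0.22) and the NOTCH2 probe (0.33) pass, and the column without replicate 4 is the one in which JAG2 (−0.24) passes.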

How the data were processed

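RNA from SB cells (red) and SCt cells (green) was compared on 4 two-colour arrays, which form 1 group. The authors deposited the red and green median intensity of each spot and its local background, read by Feature Extraction 10.5.1.1 according to the submitters' processing notes, and not normalized. Per the file headers the same files hold the software's ratio of red over green as log10, and the authors also deposited a table of the whole series on a log2 scale. Both are used as alternatives.

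The analysis used R 4.3.3 and limma 3.58.1. Normexp with an offset of 50 corrected the background over all 44495 spots of an array. The 1377 control spots and the 814 to 1168 outlier spots per array were left out, ratios were normalized by loess within arrays, and spots of 1 probe were averaged. To be tested, a probe needed a signal well above background on all 4 arrays in 1 and the same channel, and a value on 2 or more arrays, which held for 28505 of 34127 probes. The mean log2 ratio was tested against 0 with lmFit and eBayes, with Benjamini-Hochberg adjustment over these probes (threshold 0.05). Intensities are given after loess and Aquantile normalization. Where a gene of the wider list had several tested probes, the brightest was used. Loess assumes that most probes do not differ at each brightness, so a shift shared by all probes of one brightness is removed. The steps were tested on simulated data. The alternatives were the software's ratios and the series table, other background and normalization settings, other filters, a trended robust eBayes, leaving out 1 array at a time, other ways to join a gene's probes, and the methods' t-test.

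Gene names came from a match of each probe's accession to RefSeq (GRCh38.p14): 24826 matched and 9301 kept the file's identifier. The probe design refers to an earlier build, so no probe positions are given. The genes named are the 10 genes, MTDH, the genes of the wider list past the threshold and, as groups, RBPJ, gamma-secretase and the other HES and HEY genes. These genes and lists were chosen with earlier results of these data known. The design named a spot intensity without its kind, and the median was used. With 1 slide for all arrays, no block by slide was possible.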

Additional observations from a re-analysis of the deposited data

Results flagged for a closer look

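The NOTCH1 probe A_23_P60387 stood apart on 1 array. Its log2 ratio was 0.18 on array 4 and between −0.079 and −0.038 on the other arrays, and the gap between array 4 and the nearest array was 0.841 of the whole range, above the 95% critical value of Dixon's test for 4 values. The 12 probes of the 10 genes and that of AEG-1 were examined in this way, and chance alone passes that value in about 1 of 20 such groups (5%). The other NOTCH1 probe gave −0.035 on array 4.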

How the results depend on the processing

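For the 11 probes the count past the threshold stayed at 0 except with median centring in place of loess, which gave 2 (the NOTCH2 probe A_23_P200792, 0.33, adjusted p = 0.0141, and the second NOTCH1 probe, 0.22, adjusted p = 0.0217, limma), and when arrays were left out (0 to 1, JAG2 without array 4). The wider list gave 17 with median centring (12 higher, 5 lower), 0 with the methods' t-test (10 at an unadjusted p under 0.05) and 1 to 4 with an array left out, 1 without array 3 (NEURL1). Over all probes 1055 passed (376 higher, 679 lower), against 8937 with median centring (5599 higher, 3338 lower), 698 with the series table, 0 with the methods' t-test (3936 at an unadjusted p under 0.05) and 204 (without array 3) to 1991 (without array 4) with an array left out, 640 without array 1 and 431 without array 2. AEG-1 kept its fall of −3.18 under the t-test, with an adjusted p of 0.144 (the methods name a t-test, and the Benjamini-Hochberg adjustment was added here). Median centring turned the sign of the second NOTCH1 probe (0.22), JAG1 (0.055), HES1 (0.055) and MAML1 (0.0055), and moved the median over all probes from 0.012 to 0.065. The first NOTCH1 probe turned sign with the ratios of the software (0.0032), with the series table (0.0032) and with outlier spots kept (0.0014), and ranged from −0.061 to 0.025 with an array left out. NOTCH3 ranged from −0.014 (without array 4) to 0.17 (without array 1). The cause of these differences was not tested. Under the t-test the adjusted p was 0.261 for NEURL1, 0.267 for MIB1 and 0.304 for CTBP2. Each array paired RNA of SB and SCt cells, and the test of its log2 ratio against 0 used that pairing.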
